A study of Mus musculus with 28 samples.

Results

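The 9 genes described here write, erase and read methylation of cytosine in DNA. They are the DNA methyltransferases *Dnmt1*, *Dnmt3a* and *Dnmt3b*, the oxygenases *Tet1*, *Tet2* and *Tet3*, and the methyl-DNA binding proteins *Mbd1*, *Mbd2* and *Uhrf1*. They were taken by name as a family, with earlier results of these data known, and make up 9 of the 23038 genes that were counted. Each was followed through brain tissue of 2 ages, 2 regions and 2 genotypes of *Nova1*.

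DNA methylation in mammals sits mostly on cytosines that precede a guanine (CpG). DNMT1 copies the methylation pattern onto the new strand behind the replication fork, and UHRF1 recognises the half-methylated CpG left by replication and brings DNMT1 to it. DNMT3A and DNMT3B set methylation on sites that had none, and neurons are known for continuing to gain DNMT3A-dependent methylation after birth. TET enzymes oxidise 5-methylcytosine, and neurons are rich in the resulting 5-hydroxymethylcytosine. MBD1 and MBD2 bind methylated CpG and bring in complexes that repress transcription.

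Mice homozygous for a humanized *Nova1* allele (*Nova1* hu/hu) were compared with *Nova1* wt/wt mice. The allele carries the I197V substitution in the RNA-binding protein NOVA1, was made by CRISPR/Cas9 in C57BL6 zygotes with silent changes beside the substitution, and had been backcrossed to C57BL/6J; the labels give the strain of all mice as BL6. Polyadenylated RNA of whole dissected tissue was sequenced from embryonic midbrain (E18.5; 6 libraries of each genotype), from midbrain of mice at postnatal day 21 (P21; 4 of each) and from cortex at that age (4 of each), which gives 28 libraries. Both genotypes share every labelled condition except the *Nova1* allele, and E18.5 was sampled in midbrain only. What a replicate number marks is not stated. The counts per gene cannot show the substitution itself, so it was not checked in the libraries.

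Total counts ranged from 18550922 to 35047494 at E18.5, from 25256326 to 45134998 in P21 midbrain and from 30423267 to 35643736 in P21 cortex. Marker genes matched the dissection. The cortical transcription factor gene *Tbr1* ranged from 56.1 to 66.2 TPM (transcript abundance corrected for gene length and scaled to the same total in every library) in P21 cortex and from 0.586 to 1.08 TPM in P21 midbrain. The summed level of 7 midbrain markers (*Th*, *Slc6a3*, *Slc6a4*, *Foxa1*, *Foxa2*, *En1*, *En2*) ranged from 187 to 223 TPM in P21 midbrain, from 101 to 132 TPM at E18.5 and from 10.4 to 20.7 TPM in P21 cortex, where *Foxa2* had no count in any library.

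The gene starts of the pair whose products act together at the replication fork are shown because both hold a form of the E2F motif, the binding site of the factors that switch on genes for DNA replication. Windows of 300 bases around annotated starts were taken from RefSeq on GRCm38.p6 (mm10). The search covered 12 windows of 7 of the 9 genes. Those of *Mbd1* and *Mbd2* were left out, so whether they hold the motif was not tested. Each window was searched on both strands for TTTCGCGC, TTTGGCGC and TTTCCCGC. Of 32851 windows of that length in the table, 1.84% held at least 1 of the 3 forms. All 3 forms contain a CpG, and the share among windows of like CpG content was not computed. Among the 12 windows, 1 of *Dnmt1* and 1 of *Uhrf1* held one. The window of *Dnmt1* at chr9:20952574-20952873 (minus strand) held 1 TTTCGCGC, read from the opposite strand, and 1 TTTGGCGC. The window of *Uhrf1* at chr17:56304063-56304362 (plus strand) held 1 TTTCGCGC. Both lie inside the annotated span of their gene, which has another start further upstream. In the lines that follow, 5′ to 3′ on the strand of the gene, capitals mark these matches.
Dnmt1: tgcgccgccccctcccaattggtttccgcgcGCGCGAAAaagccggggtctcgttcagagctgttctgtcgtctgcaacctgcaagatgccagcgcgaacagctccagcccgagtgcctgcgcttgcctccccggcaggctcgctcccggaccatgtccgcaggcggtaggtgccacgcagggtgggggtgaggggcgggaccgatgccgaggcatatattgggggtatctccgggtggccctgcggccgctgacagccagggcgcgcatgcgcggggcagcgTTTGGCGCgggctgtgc
Uhrf1: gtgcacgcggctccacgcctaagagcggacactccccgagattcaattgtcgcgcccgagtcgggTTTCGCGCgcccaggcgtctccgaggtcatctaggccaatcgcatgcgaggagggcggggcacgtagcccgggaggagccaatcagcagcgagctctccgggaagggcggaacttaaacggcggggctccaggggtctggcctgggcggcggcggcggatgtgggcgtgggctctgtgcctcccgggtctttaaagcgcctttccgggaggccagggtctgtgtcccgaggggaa
Each of these windows held 33 CpG, against a median of 7 over all windows. The other windows of *Dnmt1* held 12 and 2 CpG, the other of *Uhrf1* 12, that of *Dnmt3b* 30, that of *Tet1* 17, that of *Tet3* 22, and those of *Dnmt3a* 46, 47 and 18. The window of *Tet2* held 57 CpG, more than 99.8% of all windows. A match of letters is a description of these windows and was not tied to the binding of any factor.

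The 9 genes spanned a wide range of levels, given here as TPM (mean ± SD over the libraries of a tissue, both genotypes together). The exon lengths behind these values run from 2346 bases for *Mbd2* to 13963 for *Tet1*, and an order of genes rests on them as well. At E18.5 *Dnmt1* led with 112 ± 5.50 TPM (SD, n = 12), followed by *Dnmt3a* with 80.8 ± 5.61, *Mbd1* with 33.2 ± 2.50, *Mbd2* with 30.6 ± 1.77, *Tet3* with 28.9 ± 3.34, *Uhrf1* with 28.2 ± 3.35, *Tet2* with 13.9 ± 1.59, *Tet1* with 12.8 ± 0.836 and *Dnmt3b* with 3.59 ± 0.588. The ranges of *Mbd1*, *Mbd2*, *Tet3* and *Uhrf1* overlapped from one neighbour in this order to the next, and so did those of *Tet2* and *Tet1*. *Tet3* was above *Uhrf1* in 6 of 12 libraries.

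At P21 the order was different and was the same in both regions. In midbrain *Dnmt3a* had 53.7 ± 2.74 TPM (SD, n = 8) and *Mbd2* 52.6 ± 3.27, and *Dnmt3a* was the higher of the pair in 4 of 8 libraries. *Dnmt1* followed with 36.1 ± 2.01, *Mbd1* with 25.1 ± 0.632, *Tet3* with 17.3 ± 0.974, *Tet2* with 8.24 ± 0.454, *Tet1* with 5.32 ± 0.676, *Uhrf1* with 1.59 ± 0.415 and *Dnmt3b* with 0.752 ± 0.255. In cortex *Dnmt3a* had 48.1 ± 2.52 TPM and *Mbd2* 48.0 ± 2.30 (SD, n = 8), again with *Dnmt3a* higher in 4 of 8 libraries. The other means were 34.4 ± 1.53 for *Dnmt1*, 25.0 ± 1.77 for *Mbd1*, 20.8 ± 2.55 for *Tet3*, 9.42 ± 0.371 for *Tet2*, 3.83 ± 0.282 for *Tet1*, 2.35 ± 0.669 for *Uhrf1* and 0.768 ± 0.240 for *Dnmt3b*. The ranges of *Mbd1* and *Tet3*, and of *Tet1* and *Uhrf1*, overlapped in cortex but not in midbrain, while those of *Uhrf1* and *Dnmt3b* overlapped in midbrain but not in cortex.

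**Figure D1:**
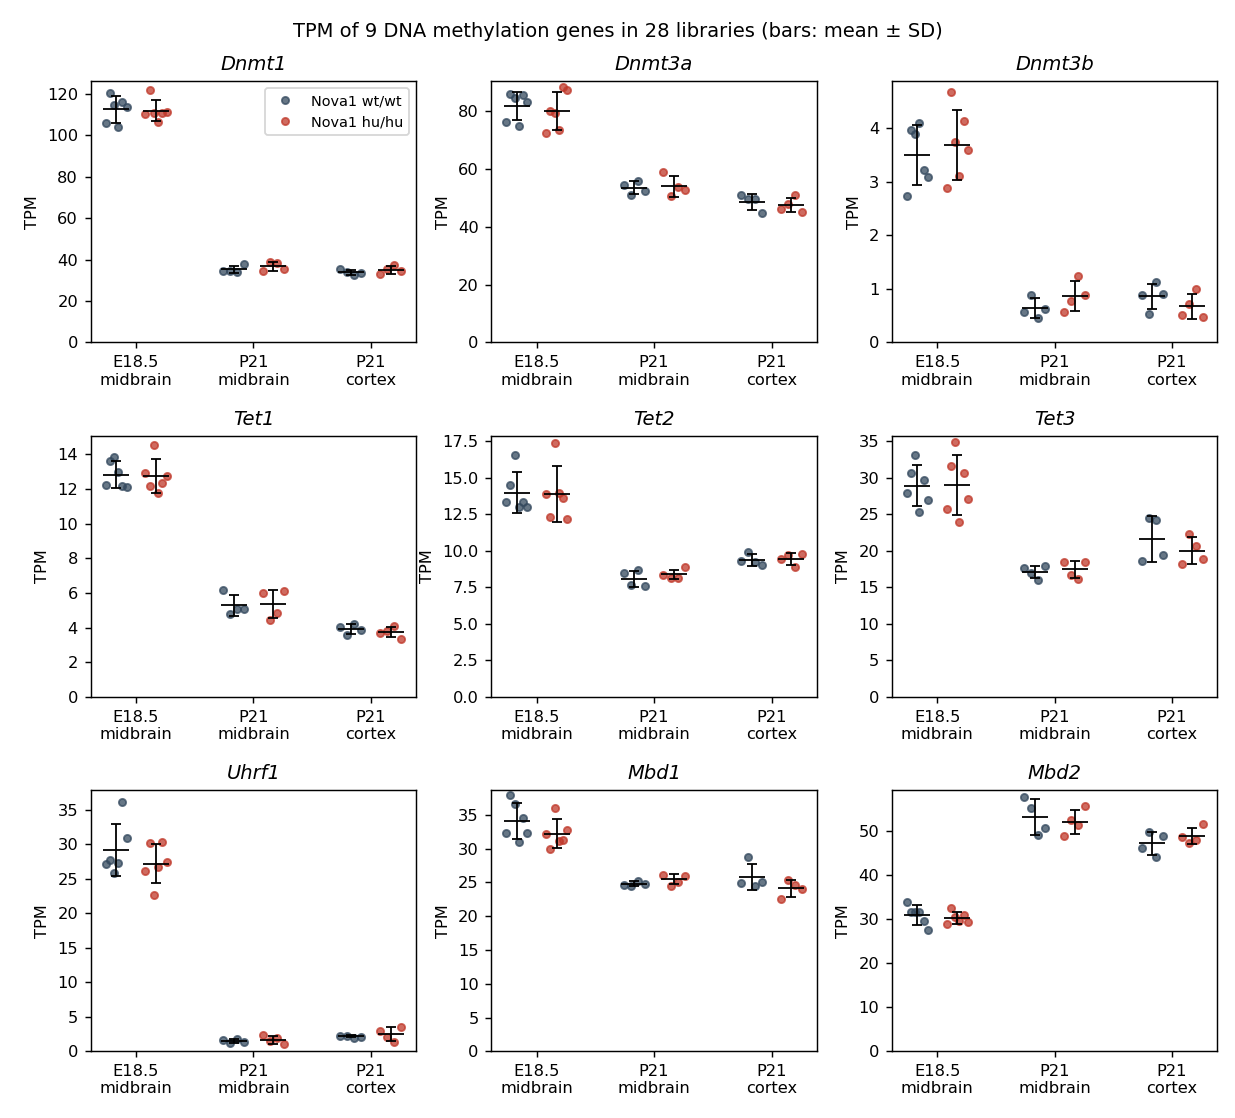
TPM of the 9 genes (linear axes from 0) in each of 28 libraries, by tissue and *Nova1* genotype; points are libraries and bars are mean ± SD of 4 to 6 libraries. *Uhrf1* stands at 22.7 to 36.1 TPM at E18.5 and at 1.01 to 3.60 TPM at P21, *Mbd2* is the only gene that is higher at P21, and the genotypes overlap in every panel.

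Among the writers, *Dnmt1* and *Dnmt3b* fell most between E18.5 and P21 midbrain. *Dnmt1* (chromosome 9, 20907206 to 20959888) ranged from 104 to 122 TPM at E18.5 with a median of 111, and from 34.2 to 39.0 TPM at P21 with a median of 35.0. The lowest E18.5 library was far above the highest P21 library. Its log2 fold change (P21 minus E18.5) was −1.43 with a standard error of 0.0357, a 2.70-fold fall (adjusted p = 1.32e-22, edgeR's quasi-likelihood test, 20 libraries). *Dnmt3b* (chromosome 2, 153649411 to 153687730), the methyltransferase of early embryos, ranged from 2.73 to 4.67 TPM at E18.5 with a median of 3.67 and from 0.456 to 1.25 TPM at P21 with a median of 0.698. The ages were apart, and the log2 fold change was −2.05 with a standard error of 0.144 (adjusted p = 6.11e-13). These P21 values rest on 19 to 58 counts per library. *Dnmt3a* (chromosome 12, 3801559 to 3914443) fell less, from 72.4 to 88.1 TPM with a median of 81.4 at E18.5 to 50.5 to 58.8 TPM with a median of 53.2 at P21. The fold change was −0.39 on the log2 scale with a standard error of 0.0395 (adjusted p = 1.13e-09), without overlap of the ages.

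The exchange of rank between *Dnmt1* and *Dnmt3a* was seen in every library. *Dnmt3a* stood at 0.721 ± 0.0417 times the TPM of *Dnmt1* at E18.5 (SD, n = 12; range 0.657 to 0.794), at 1.49 ± 0.137 times in P21 midbrain (n = 8; range 1.30 to 1.70) and at 1.40 ± 0.0704 times in P21 cortex (n = 8; range 1.32 to 1.53). Of the summed TPM of the 3 methyltransferases, 197 ± 10.1 for E18.5 libraries and 90.5 ± 2.42 for those of P21 midbrain, *Dnmt1* held 57.1% ± 1.38 at E18.5 and 39.9% ± 2.13 in P21 midbrain. *Dnmt3b* held 1.82% ± 0.267 at E18.5 and 0.831% ± 0.278 in P21 midbrain. These are ratios of RNA levels and say nothing of the amounts of protein.

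All 3 erasers fell with age, *Tet1* most. *Tet1* (chromosome 10, 62804570 to 62887469), whose protein binds CpG-rich DNA through a CXXC domain, ranged from 11.8 to 14.5 TPM at E18.5 with a median of 12.5 and from 4.45 to 6.19 TPM in P21 midbrain with a median of 5.09. The ages were well apart, with a log2 fold change of −1.06 and a standard error of 0.0566 (adjusted p = 1.67e-15, edgeR). *Tet2* (chromosome 3, 133463677 to 133545136), whose protein lacks that domain, ranged from 12.2 to 17.4 TPM with a median of 13.5 at E18.5 and from 7.57 to 8.87 TPM with a median of 8.27 at P21. *Tet3* (chromosome 6, 83362373 to 83457208), the TET gene with the most RNA in all 3 tissues, ranged from 23.9 to 34.8 TPM with a median of 28.8 and from 16.0 to 18.48 TPM with a median of 17.3. Both fell without overlap of the ages, with log2 fold changes of −0.55 (standard error 0.0556, adjusted p = 8.84e-10) and −0.54 (standard error 0.0505, adjusted p = 2.41e-10).

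Within the TET family the share of *Tet1* therefore shrank. *Tet1* made up 23.0% ± 1.28 of the summed TET TPM at E18.5 (SD, n = 12), 17.2% ± 1.28 in P21 midbrain (n = 8) and 11.3% ± 1.09 in P21 cortex (n = 8). The ranges, 21.7% to 25.3%, 15.2% to 19.1% and 9.33% to 12.7%, did not overlap. *Tet3* made up 51.9% ± 2.30, 56.1% ± 1.59 and 61.0% ± 2.61, and *Tet2* between 25.0% and 27.8% on average. The summed TPM of the methyltransferases was 3.55 ± 0.271 times that of the TET genes at E18.5, 2.94 ± 0.176 times in P21 midbrain and 2.45 ± 0.188 times in P21 cortex.

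**Figure D2:**
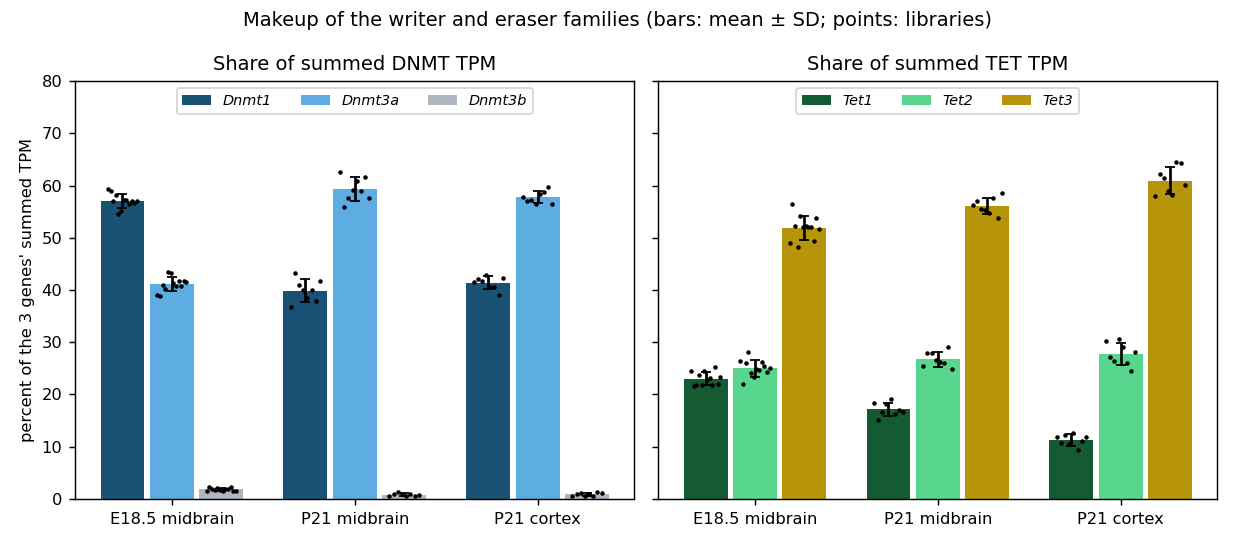
Share of each gene in the summed TPM of the 3 DNMT genes (left) and the 3 TET genes (right), in percent, by tissue; bars are means ± SD over 12, 8 and 8 libraries and points are libraries. *Dnmt1* holds 57.1% of DNMT TPM at E18.5 and 39.9% in P21 midbrain, and *Tet1* holds 23.0%, 17.2% and 11.3% of TET TPM from left to right.

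The readers moved in opposite directions. *Uhrf1* (chromosome 17, 56303337 to 56323486) ranged from 22.7 to 36.1 TPM at E18.5 with a median of 27.3, and from 1.01 to 2.32 TPM in P21 midbrain with a median of 1.59, on 45 to 102 counts per library. Its log2 fold change was −3.94 with a standard error of 0.117, a 15.4-fold fall (adjusted p = 5.16e-21, edgeR), and 0.349% of all genes tested had a lower value. *Uhrf1* thus fell further than its partner *Dnmt1*: it stood at 0.251 ± 0.0271 times the TPM of *Dnmt1* at E18.5 (SD, n = 12; range 0.205 to 0.311) and at 0.0442 ± 0.0123 times in P21 midbrain (n = 8; range 0.0285 to 0.0673).

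*Mbd2* (chromosome 18, 70568225 to 70629134), the methyl-CpG binding subunit of a NuRD corepressor complex, rose. It ranged from 27.5 to 33.9 TPM at E18.5 with a median of 30.7 and from 48.8 to 57.8 TPM in P21 midbrain with a median of 51.9, so that every P21 library was above every E18.5 library. The log2 fold change was 0.98 with a standard error of 0.0439, a 1.98-fold rise (adjusted p = 3.74e-17). *Mbd1* (chromosome 18, 74267605 to 74282737), which works with the histone methyltransferase SETDB1, changed least of the 9. It ranged from 30.0 to 37.9 TPM with a median of 32.3 at E18.5 and from 24.5 to 26.1 TPM with a median of 25.0 at P21. It fell by 0.20 on the log2 scale with a standard error of 0.0386 (adjusted p = 4.58e-05), and in the *Nova1* hu/hu libraries alone it was −0.12, which was not called (adjusted p = 0.0774, unadjusted p = 0.0622, edgeR).

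All 9 genes were thus called between the ages (unadjusted p under 0.05 and adjusted p under 0.1), as were 85.6% of the 16330 genes tested. Of these, 8 were lower at P21, against 43.3% of all genes, and 1 was higher, against 42.4%. A fall of at least 2-fold was found for 4 (*Dnmt1*, *Dnmt3b*, *Tet1* and *Uhrf1*), against 14.6% of all genes, and a rise of at least 2-fold for none, against 15.9%. The median log2 fold change of the 9 genes was −0.55 and that of all genes −0.02. The TPM ranges of E18.5 and P21 midbrain did not overlap for any of the 9 genes, nor for 60.1% of all genes tested. On the TPM scale the median gene tested had a log2 ratio of −0.22 between the ages, which edgeR's TMM factors remove, so that fold changes are given on edgeR's scale. On the TPM scale *Mbd1* had a log2 ratio of −0.40 and *Mbd2* one of 0.78, and the direction of all 9 genes was the same on both scales.

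Markers of dividing cells moved with age as well. All 10 proliferation markers examined (*Mki67*, *Top2a*, *Cdk1*, *Ccnb1*, *Aurkb*, *Birc5*, *Mcm2*, *Mcm5*, *Rrm2*, *Tyms*) fell at least 2-fold, with a median log2 fold change of −3.41, and none was at 0. Their summed level ranged from 213 to 265 TPM at E18.5, from 18.6 to 24.5 TPM in P21 midbrain and from 24.2 to 31.4 TPM in P21 cortex. That of 5 neural progenitor markers ranged from 176 to 223, from 57.7 to 75.7 and from 60.2 to 91.4 TPM, and that of 5 oligodendrocyte markers from 58.2 to 81.9, from 19816 to 22304 and from 5725 to 6461 TPM. Of the other cell type lists between the ages, 3 of 5 neuron, 4 of 5 astrocyte, 3 of 4 oligodendrocyte precursor, 5 of 5 microglia, 1 of 4 endothelial and 2 of 4 erythroid genes were called higher at P21, and 2, 1, 1, 0, 2 and 0 lower. Of the region markers, 0 of 4 cortical genes tested were called higher in P21 midbrain and 3 lower. Among the 7 midbrain markers, 3 were called higher and 4 lower. The part of these shifts in the changes of the 9 genes was not tested. In whole tissue, fewer cells of a type and less RNA per cell cannot be told apart, and age cannot be told apart from anything else that differed between the dissections at E18.5 and P21.

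**Figure D3:**
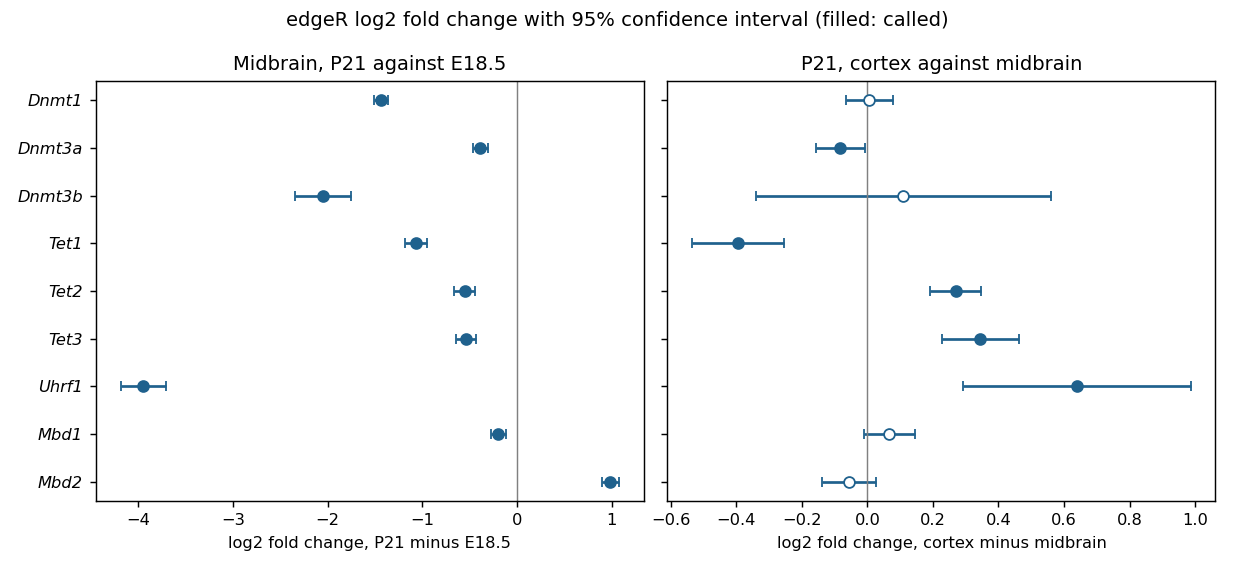
edgeR log2 fold changes of the 9 genes with 95% confidence intervals, between ages in midbrain (left, 20 libraries) and between regions at P21 (right, 16 libraries; the axes differ in scale); filled points were called. On the left 8 genes lie below 0 and *Mbd2* above, and on the right *Tet1* lies below 0 at −0.39 while *Tet2*, *Tet3* and *Uhrf1* lie above at 0.27, 0.34 and 0.64.

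Between the regions at P21 the TET genes parted. *Tet1* was lower in cortex, at 3.37 to 4.18 TPM with a median of 3.84, than in midbrain, and the regions did not overlap. Its log2 fold change (cortex minus midbrain) was −0.39 with a standard error of 0.0673 (adjusted p = 1.25e-05, edgeR, 16 libraries). *Tet2* was higher in cortex, at 8.90 to 9.93 TPM with a median of 9.38, and its lowest cortex library was just above the highest midbrain library at 8.87 TPM. The difference was 0.27 (log2) with a standard error of 0.0379 (adjusted p = 8.28e-07). *Tet3* was higher in cortex as well, at 18.1 to 24.5 TPM with a median of 20.03, and overlapped with midbrain. The difference was 0.34 (log2) with a standard error of 0.0567 (adjusted p = 7.89e-06). The summed TET level was 30.9 ± 1.75 TPM in midbrain and 34.1 ± 2.70 TPM in cortex (SD, n = 8 each), with overlapping ranges.

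*Uhrf1* was higher in cortex, at 1.41 to 3.60 TPM with a median of 2.20, and overlapped with midbrain. Its log2 fold change was 0.64 with a standard error of 0.168 (adjusted p = 0.00151, edgeR), on 61 to 142 counts per cortex library. Of the 10 proliferation markers, 6 were called higher in cortex and none lower, and the part of dividing cells in the difference of *Uhrf1* was not tested. *Dnmt3a* was called lower in cortex, with a log2 fold change of −0.08, a standard error of 0.0363 and an adjusted p of 0.0445. This call was lost in each genotype alone (−0.06 with an unadjusted p of 0.256 in wt/wt, −0.10 with 0.0663 in hu/hu), and when any of 5 libraries was left out. Of cortex these were replicate 1 of hu/hu (unadjusted p = 0.0560, edgeR), replicate 4 of hu/hu (0.0826) and replicate 4 of wt/wt (0.0877), and of midbrain replicate 1 of hu/hu (0.0849) and replicate 3 of wt/wt (0.0610). The adjusted p was under 0.1 in hu/hu alone (0.0944) and in the first and last of the 5 (0.0743 and 0.0802), so that these calls were lost on the unadjusted p. Its estimates with 1 library left out lay between −0.10 and −0.06 (log2).

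*Dnmt1*, *Dnmt3b*, *Mbd1* and *Mbd2* were not called between the regions. The 95% confidence interval of the log2 fold change was −0.06 to 0.08 for *Dnmt1*, −0.34 to 0.56 for *Dnmt3b*, −0.01 to 0.14 for *Mbd1* and −0.14 to 0.03 for *Mbd2*. *Mbd1* passed the rule in the *Nova1* wt/wt libraries alone, with a log2 fold change of 0.14 (adjusted p = 0.0416, edgeR), and without replicate 1 of hu/hu cortex, with 0.08 (adjusted p = 0.0459). For *Dnmt1* and *Mbd1* the sign also depended on the scale, with log2 TPM ratios of −0.07 and −0.01, where the median of all genes was −0.08. In all, 5 of the 9 genes were called between regions, against 75.6% of the 16345 genes tested. Of these, 2 were lower in cortex and 3 higher, against 37.9% and 37.7% of all genes, and none differed by at least 2-fold, against 7.81% lower and 7.56% higher. The TPM ranges of the regions did not overlap for *Tet1* and *Tet2* only, and for 47.3% of all genes tested.

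None of the 9 genes was called between the *Nova1* genotypes in any tissue. With 15540 genes tested at E18.5, 15972 in P21 midbrain and 15767 in P21 cortex, edgeR called 0 genes in each, which is 0% of all genes, and 201, 426 and 450 genes had an unadjusted p under 0.05, none of them among the 9. DESeq2 called 0, 1 and 0 genes. The replicate numbers of the labels pair the libraries of the genotypes, and a fit blocked on that number called 0, 4 and 0 genes, none of them among the 9. It gave 813, 735 and 897 genes an unadjusted p under 0.05, more than the main fits, which leave the pairing out. The estimates and intervals that follow are those of the main fits. Because these leave the pairing out, their intervals can be wider than paired ones. With the block, *Tet3* in P21 cortex had an unadjusted p of 0.0194 (log2 fold change −0.11, adjusted p = 0.830, lower in *Nova1* hu/hu in 4 of 4 pairs). Its standard error was 0.0418 with the block and 0.0866 in the main fit.

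In E18.5 midbrain the estimates of the 9 genes (*Nova1* hu/hu minus *Nova1* wt/wt) lay between −0.10 for *Uhrf1* and 0.07 for *Dnmt3b*. *Uhrf1* ranged from 22.7 to 30.2 TPM in the humanized and from 25.8 to 36.1 TPM in *Nova1* wt/wt mice, and was lower in *Nova1* hu/hu in 5 of 6 pairs. For the 7 genes other than *Dnmt3b* and *Uhrf1*, the 95% confidence intervals at E18.5 stayed within −0.20 to 0.15. *Dnmt1* and *Dnmt3a* were the most precise, with intervals of −0.11 to 0.08 and −0.14 to 0.08.

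At P21 the least abundant genes had the widest intervals. *Dnmt3b* was at 0.565, 0.767, 1.25 and 0.886 TPM in midbrain of *Nova1* hu/hu mice and at 0.567, 0.894, 0.456 and 0.629 TPM in *Nova1* wt/wt mice. The genotypes overlapped, and the log2 fold change was 0.43 with an interval of −0.18 to 1.04. Leaving out single libraries moved it from 0.21 (without replicate 3 of hu/hu) to 0.64 (without replicate 2 of wt/wt). In cortex *Dnmt3b* was at 0.515, 0.726, 0.989 and 0.477 TPM in humanized and at 0.877, 0.540, 1.12 and 0.898 TPM in wt/wt mice, which gave an estimate of −0.33 and an interval of −0.93 to 0.26. It moved from −0.58 without replicate 3 of hu/hu to −0.17 without replicate 3 of wt/wt. *Uhrf1* in cortex was at 3.01, 2.11, 1.41 and 3.60 TPM in humanized and at 2.29, 2.29, 2.003 and 2.10 TPM in wt/wt mice, with the humanized libraries spread on both sides of the others. The estimate was 0.22 (−0.25 to 0.69), and it rested on single libraries: it was 0.0058 without replicate 4 of hu/hu, 0.12 without replicate 1 of hu/hu and 0.42 without replicate 3 of hu/hu (unadjusted p = 0.0317, adjusted p = 0.965, edgeR). Differences of the size of these intervals were not detectable for *Dnmt3b* and *Uhrf1* at P21. In all 27 combinations of gene and tissue the ranges of the genotypes overlapped.

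**Figure D4:**
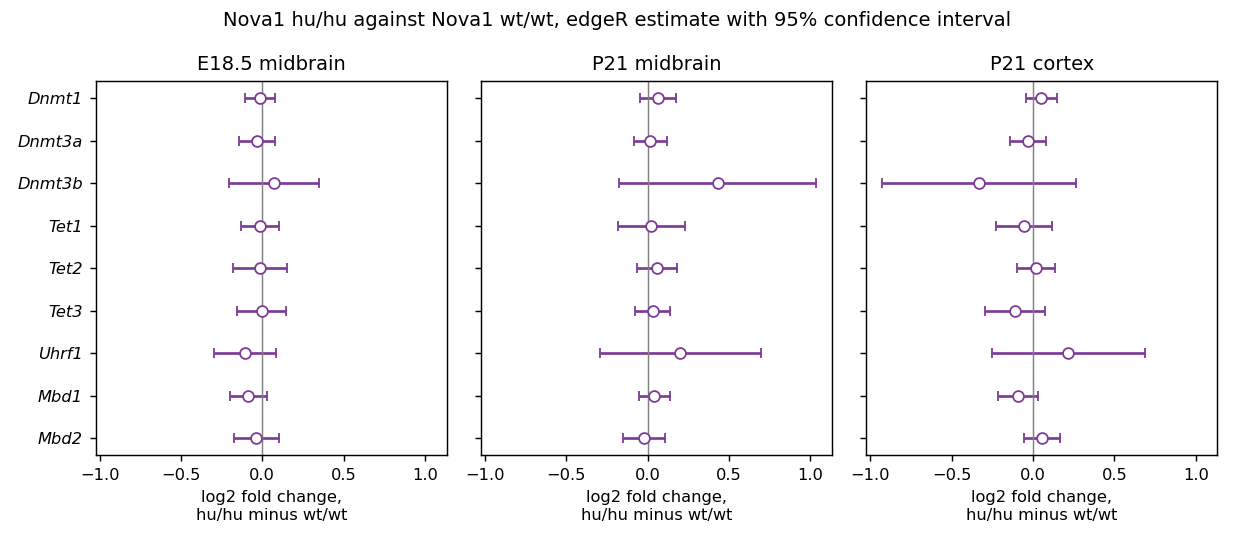
edgeR log2 fold changes of the 9 genes, *Nova1* hu/hu minus *Nova1* wt/wt, with 95% confidence intervals, in E18.5 midbrain (12 libraries), P21 midbrain (8) and P21 cortex (8). The fits leave out the pairing by replicate number. Every interval of these fits includes 0, and those of *Dnmt3b* and *Uhrf1* at P21 are the widest, reaching 1.04 and 0.69 in midbrain.

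The effect of the *Nova1* genotype on these genes was also compared between ages and between regions. The interaction test of edgeR called 0 of 16330 genes between ages and 0 of 16345 between regions (0% in each), with 303 and 373 genes at an unadjusted p under 0.05, and DESeq2 called 0 in each. The largest estimates among the 9 genes were 0.35 for *Dnmt3b* between ages (95% confidence interval −0.23 to 0.94) and −0.76 for *Dnmt3b* between regions (−1.63 to 0.10). With single libraries left out they ran from 0.14 to 0.57 and from −1.01 to −0.54. No member had an unadjusted p under 0.05 in either test. With the replicate block, *Tet3* and *Mbd1* had unadjusted p-values of 0.0262 and 0.0433 between regions, with log2 differences of −0.14 each, and neither was called.

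The wider pathway was followed through 62 genes in 6 lists, of which 60 could be tested between the ages. Of these, 39 fell from E18.5 to P21 midbrain, 17 rose and 4 were not called, with a median log2 fold change of −0.38. Of all genes tested, 43.3% were lower and 42.4% higher, with a median of −0.02, and the counts of each list stand against these shares. The partners of DNMT1 and UHRF1 in maintenance, with the related methyltransferase gene *Trdmt1*, fell as a group, 8 of 8, with a median of −1.07. *Hells*, the chromatin remodeller needed for normal CpG methylation, fell by 2.49 on the log2 scale (standard error 0.0778), its partner *Cdca7* with −2.44 (0.118), *Lig1*, the DNA ligase that joins replicated fragments, with −1.40 (0.0653), and *Uhrf2*, the paralogue of *Uhrf1*, with −0.49 (0.0371). *Uhrf2* had 39.7 ± 1.83 TPM at E18.5 and 24.5 ± 1.11 in P21 midbrain, and so had a higher mean than *Uhrf1* at both ages, by more at P21. *Dnmt3l*, the cofactor of de novo methylation in germ cells, had at most 9 counts in any library and was not tested.

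Of 10 genes of base excision and active demethylation, 5 fell and 4 rose, near the shares of all genes. The DNA glycosylase genes *Neil3* and *Tdg*, the latter of which removes oxidised methylcytosine, had log2 fold changes of −4.11 (standard error 0.163) and −0.96 (0.0548), *Ogt*, whose product modifies TET proteins, with −0.58 (0.0363), and *Apex1*, the endonuclease that follows the glycosylases, with −0.71 (0.0581). These 4 had the smallest p. Among those that rose, named after their values were seen, were the stress-response genes *Gadd45b* with 1.20 (0.120) and *Gadd45g* with 1.15 (0.101). Of 8 other methyl-CpG readers, 5 fell and 3 rose. *Zbtb4* rose with 1.55 (0.061), *Zbtb33*, which encodes Kaiso, fell with −1.01 (0.0578), *Mbd3*, which takes the place of *Mbd2* in NuRD, rose with 0.32 (0.0359), and the glycosylase gene *Mbd4* fell with −0.40 (0.0674).

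Of 7 binders of unmethylated CpG, 5 fell and 1 rose. *Kdm2b* fell by 1.85 on the log2 scale (standard error 0.0407), *Cxxc4* with −0.92 (0.0604) and the histone methyltransferase gene *Kmt2a* with −0.60 (0.0473), while *Cxxc5* rose with 0.65 (0.0517). Of 17 corepressor genes, 13 fell and 4 rose, among them *Hdac2* (−1.57, 0.0736), *Setdb1* (−0.92, 0.0287) and *Mta2* (−0.84, 0.0363) with a fall and *Mta3* (1.60, 0.042) with a rise. *Mta2* and *Mta3* encode alternative subunits of NuRD. The methyl donor cycle, with *Ahcyl1*, a relative of the cycle gene *Ahcy*, was the only list of the 6 with a median above 0 (0.09). It had 5 genes higher, 3 lower and 2 not called. *Ahcyl1* rose with 1.32 (0.0397), *Mat2b*, the regulatory subunit of the enzyme that makes S-adenosylmethionine, with 1.27 (0.0388), and *Mthfd1* with 0.45 (0.0392), while *Mtr*, methionine synthase, fell with −0.68 (0.0633).

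**Figure D5:**
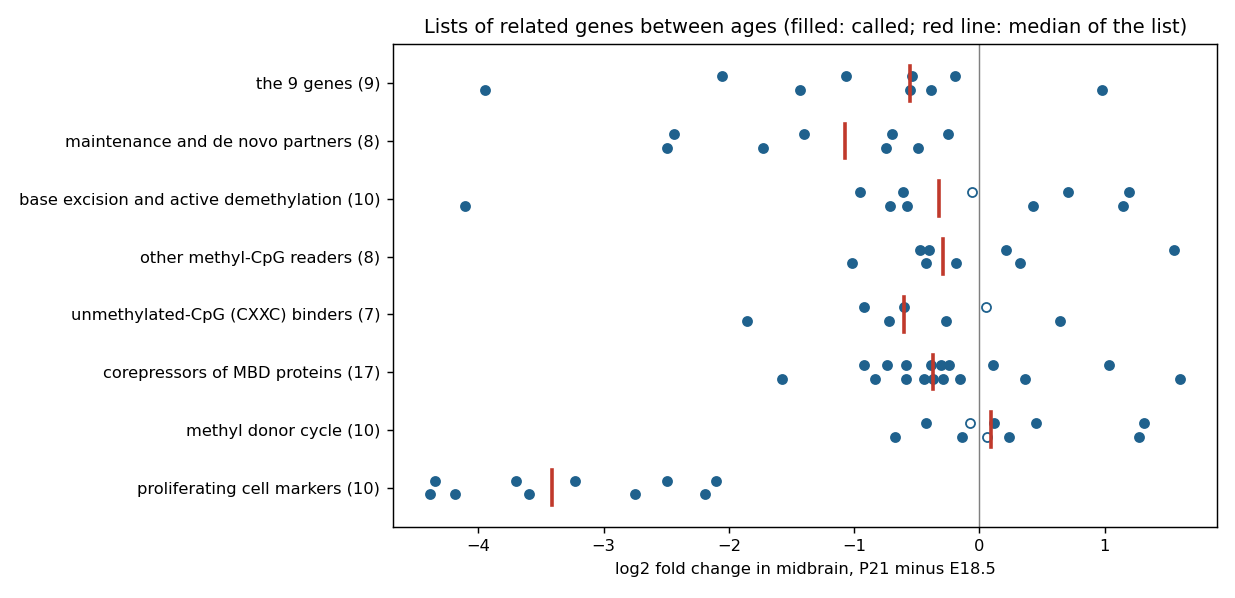
edgeR log2 fold changes (P21 minus E18.5, midbrain) of the 9 genes, of the tested genes of 6 related lists and of 10 proliferation markers; each point is a gene, filled where called, and red lines are medians. The medians are −0.55 for the 9 genes, −1.07 for the maintenance partners, 0.09 for the methyl donor cycle and −3.41 for the proliferation markers.

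Between the regions at P21, 23 of 61 tested pathway genes were higher in cortex, 20 lower and 18 not called, with a median log2 fold change of −0.02. Of all genes tested, 37.7% were higher and 37.9% lower, near the shares of these genes. Among the maintenance partners *Cdca7* was higher in cortex (log2 fold change 1.81, standard error 0.112) *Uhrf2* was higher (0.10, 0.0384), and *Lig1* (−0.93, 0.0459) and *Trdmt1* (−0.35, 0.114) were lower. In base excision and demethylation 5 of 10 genes were higher and none lower, with *Tdg* at 0.74 (0.0531), *Gadd45b* at 0.88 (0.121), *Apex1* at 0.30 (0.0399) and *Ogt* at 0.16 (0.0269). The readers *Mbd4* (0.59, 0.0615), *Mbd5* (0.29, 0.0308) and *Mbd3* (0.29, 0.0348) were higher in cortex, and *Zbtb4* was lower (−0.15, 0.0312). Of 7 binders of unmethylated CpG 2 were higher, with *Cxxc1* at 0.34 and *Kdm2b* at 0.20, and 3 lower, with *Cxxc4* at −0.45 and *Kdm2a* at −0.18. Of 17 corepressor genes 7 were higher, with *Chd3* at 0.71 and *Ncor1* at 0.66, and 5 lower, with *Mta3* at −0.61. Of the methyl donor list 7 of 11 genes were lower in cortex and 2 higher. Among them were *Ahcyl1* at −0.36 (0.0221), *Mat2a* at −0.42 (0.0332), *Mthfd1* at −0.35 (0.0313) and *Mat2b* at 0.99 (0.033). Between the *Nova1* genotypes none of the pathway genes tested was called in any tissue, of 60, 60 and 59 genes.

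For each of the 9 genes the 2 genes with the most similar course over the 28 libraries were taken from 15540 genes with a mean of at least 1 TPM, by the root mean square difference of log2(TPM + 0.1) after centring each gene on its own mean. *Uhrf1* was closest to *Mki67* (0.288) and *Kif2c* (0.291), both genes of dividing cells, while its own root mean square deviation was 1.93. *Dnmt1* was closest to *Prune* (0.0728) and *Zfp90* (0.0936), against a deviation of 0.829, and *Dnmt3a* to *Rnf145* (0.0667) and *Accn2* (0.0718), against 0.346. *Dnmt3b* was closest to *Mmp11* (0.300) and *BC024582* (0.316), against 1.11. *Tet1* was closest to *Atad2b* (0.107) and *Fndc3a* (0.112), *Tet2* to *Ogfr* (0.0828) and *Mphosph9* (0.0840), *Tet3* to *Pppde1* (0.110) and *Pan3* (0.110), *Mbd1* to *Mkrn1* (0.0743) and *Ankle2* (0.0772), and *Mbd2* to *Hmox2* (0.0895) and *Pitpna* (0.0907). Among the 9 genes themselves *Tet2* and *Tet3* were the closest pair (0.141), and *Uhrf1* was closer to *Dnmt3b* (1.004) than to *Dnmt1* (1.13). The libraries share age and region, so this likeness follows mostly their 3 tissues and is a description of these libraries.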

How the data were processed

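The 28 RNA-seq libraries (E18.5 midbrain, 6 of each genotype; P21 midbrain and P21 cortex, 4 of each) were used. Cerebellum was not analysed here. The authors aligned paired-end reads of polyadenylated RNA to mm10 with OLego using Quantas to count them per gene; the annotation version and the use of strand are not given in the sources used here, so overlapping and antisense genes are uncertain. For each library the authors deposited an expected count per gene, an exon length and an RPKM value, the latter following from the expected count, the length and the library total. Total counts ranged from 18550922 to 45134998, and the expected counts were not whole for 751 to 2715 genes per library.

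TPM was computed from the deposited expected counts and exon lengths. For tests the expected counts were rounded. Groups came from the labels. Genotypes within each tissue, ages in midbrain, regions at P21 and both interactions were compared over all genes with edgeR 4.0.16 (quasi-likelihood test, TMM factors, filterByExpr, R 4.3.3). Age and region fits held the genotype as a term. A gene was called, by the study's thresholds, at an unadjusted p under 0.05 with an adjusted p (Benjamini-Hochberg) under 0.1, and all tests were two-sided. The p-values measure the spread between libraries labelled as replicates, which the labels do not further describe. The paper states that its RNA sequencing data held male-female pairs in equal numbers. The sex of single libraries was not known here and was not a term in any fit. No pair of replicates agreed within counting noise (lowest chi-square per degree of freedom 4.63). Of 23038 Entrez identifiers, 22959 matched RefSeq GRCm38.p6, the source of positions and of the windows at gene starts, which run from 5′ to 3′ of the gene.

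The replicate numbers pair the genotypes: the deviations of same-numbered libraries from their group means correlated at 0.165 to 0.399 (E18.5), 0.155 to 0.230 (P21 midbrain) and 0.169 to 0.220 (P21 cortex). Same-numbered libraries of the regions correlated at −0.162 to −0.0445 and were not paired by number. Midbrain replicates 1, 2, 3 and 4 correlated with cortex replicates 3, 4, 1 and 2 at 0.119 to 0.230 in *Nova1* hu/hu. In *Nova1* wt/wt these pairs correlated at 0.0748 to 0.174. Whether such libraries came from the same mice is not given. The region fits, with and without the block on number, did not use this link. The main fits have no block.

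The members, the 6 pathway lists and the marker lists were chosen with earlier results of these data known. Estimates of all members are given in the text or a figure for the genotype, age and region comparisons. For the interactions only some members are named. Of each list up to 4 called genes with the smallest p are named, and for each member the 2 genes most alike. Some list genes are not reported here by name. The alternatives were RLE factors, DESeq2 1.42.0, all genes unfiltered, only genes with 10 counts or more in each library, a stricter adjusted p (0.05), the block on replicate number, 1 genotype only, each library left out and RPKM in place of TPM. Quasi-likelihood with adjusted deviances was added after seeing the data.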

Additional observations from a re-analysis of the deposited data

Results flagged for a closer look

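In 4 of 54 groups of 4 to 6 libraries, 1 library stood apart from the rest of its group by Dixon's test at the 95% level, which chance does in about 1 in 20 groups. *Dnmt1* was at 122 TPM in replicate 2 of *Nova1* hu/hu midbrain at E18.5, where the other 5 libraries lay between 107 and 111 TPM. *Dnmt1* was at 38.0 TPM in replicate 4 of *Nova1* wt/wt midbrain at P21, where the other 3 lay between 34.2 and 34.6 TPM. *Mbd1* was at 28.8 TPM in replicate 2 of *Nova1* wt/wt cortex at P21, where the other 3 lay between 24.5 and 25.1 TPM. *Tet2* was at 17.4 TPM in replicate 3 of *Nova1* hu/hu midbrain at E18.5, where the other 5 lay between 12.2 and 13.99 TPM. The 4 values are in 4 different libraries.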

How the results depend on the processing

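The number of the 9 genes called was the same, or within 1.5 times, under every alternative run in all 7 comparisons. For genotype in P21 midbrain, where 0 genes were called, DESeq2 called 1 (*Gkn3*) and the replicate block 4 (*Gabra6*, *Mybpc3*, *Cbln3*, *Cdr1*), named here after their values were seen. The paper, which also used edgeR, reports *Gkn3* as lower in P21 midbrain of *Nova1* hu/hu mice, a call that the main fit here did not make. The block changed no other count of calls by over 1.5 times. No member's value reversed direction with a call. A call of a single member was lost or gained for *Mbd1* between ages (*Nova1* hu/hu only) and for *Dnmt3a* and *Mbd1* between regions, as given with those results. Of 1395 alternatives for single members, 1330 stayed on the same side of the threshold with the same direction, and 55 moved, 53 of them uncalled estimates that changed sign and 2 of them levels by RPKM in place of TPM. Of the 9 genes, 8 to 9 were called between ages and 4 to 5 between regions. An unadjusted p under 0.05 for genotype or an interaction occurred in 11 alternatives of single members, none of them called. Between the regions, the median log2 ratio of the 9 genes was −0.01 by TPM and 0.05 by RPKM. Counts of 19 to 58 per library limit what can be seen of *Dnmt3b* at P21.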
